A study of Mus musculus with 8 samples.

Results

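The 4 cadherins and 5 other proteins of epithelial cell junctions are described here across 8 libraries of ribosome-bound RNA from the collecting duct lineage of the mouse kidney. The 9 genes are Cdh1, Cdh2, Cdh6, Cdh16, Epcam, Tjp1, Ocln, Cgn and Ctnnb1, taken by symbol from the 24421 genes in the count tables. They were taken by symbol from a named set of junction proteins, a choice made with earlier results of these data known. In the injured group (IRI, ischemia-reperfusion injury) the renal artery was clamped for 30 min and the kidneys were taken 9 h later, and in the sham group the same operation was done without the clamp. All mice were males of 10 to 16 weeks under isoflurane. Mice of both groups carried HoxB7-Cre and the Gt(ROSA)26Sor-mCherry-Rpl10a allele (mCherryTRAP), in which Cre switches on a ribosomal protein fused to mCherry, so tagged ribosomes mark any cell with a history of HoxB7-Cre activity, whatever its state at harvest. Ribosomes were captured from whole frozen kidney with anti-RFP magnetic beads, and RNA from other kidney cells can be carried along. There were 4 IRI and 4 sham libraries, each from 1 mouse.

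Epithelial cells hold to each other through belts of junctions near their apical side. In the adherens junction, cadherins of neighbouring cells bind one another outside the cell and beta-catenin and alpha-catenin tie their tails to actin, while in the tight junction occludin and claudins seal the space between cells and are held by scaffold proteins such as ZO-1 and cingulin. E-cadherin is the main cadherin of the collecting duct and distal tubule, N-cadherin and Cadherin-6 are better known from the proximal tubule and its precursors, and Cadherin-16 is largely restricted to kidney and thyroid epithelium.

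Gene counts summed to between 13518005 and 27496808 per IRI library and between 25210299 and 29285812 per sham library. Alignments at several places were 29.5% to 34.3% of counted lines in the IRI libraries and 20.9% to 22.8% in the sham libraries. No marker found in the counts, of any cell type read here, was at 0 in every library, so presence alone cannot tell the cell types apart. For the labelled cell type 10 principal cell markers were read, among them the water channel Aqp2. Their summed level was 2108 to 3915 CPM (counts scaled to each library's normalised total) in the IRI libraries and 12315 to 16091 CPM in the sham libraries, and all 10 fell. Of the intercalated cell markers 9 of 10 fell, from a sum of 3749 to 4657 CPM in sham to 2050 to 3113 CPM in IRI. Markers of other kidney and blood cells were also read: 7 of 12 proximal tubule markers rose (9518 to 19289 CPM in IRI, 7769 to 10546 CPM in sham), as did 6 of 10 endothelial markers (300.4 to 636 against 203 to 284 CPM) and 6 of 6 tested neutrophil markers (49.6 to 134 against 2.62 to 5.48 CPM). Of macrophage and monocyte markers 3 of 9 tested rose (65.4 to 104 against 32.8 to 47.1 CPM), of thick limb and distal tubule markers 1 of 6 rose (1302 to 2058 against 1088 to 2031 CPM), and of fibroblast and pericyte markers 2 of 10 rose. The fibroblast and pericyte sums were 302 to 1688 CPM in IRI, with IRI library 2 highest, and 238 to 381 CPM in sham. A marker rose or fell if it passed the test given below, by which 25.1% of all genes tested rose and 24.6% fell. In bulk RNA of this kind, fewer cells of a type and less RNA per cell cannot be told apart, and the part of these shifts in the results below was not tested.

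Of the 9 genes, 3 rose and 1 fell in the IRI libraries. E-cadherin (Cdh1), Tjp1 and Ocln rose by 2.59, 1.91 and 1.76-fold, while Cdh16 fell 2.1-fold. By CPM, Epcam and Ctnnb1 were higher in every IRI library than in every sham library without passing the threshold. With raw totals of gene counts in place of normalised totals, the groups overlap for Epcam and for Ctnnb1. Cgn, Cdh2 and Cdh6 overlapped between the groups by CPM. All 9 passed the filter on low counts. The test was edgeR's quasi-likelihood test on all 14606 genes that passed that filter, with a Benjamini-Hochberg adjusted p under 0.01, and at that threshold 25.1% of all genes tested rose and 24.6% fell. In either direction 49.7% of all genes tested passed, against 4 of these 9. By CPM the IRI libraries lay above all sham libraries for 5 of the 9 genes and below them for 1, against 28.8% and 29.8% of all genes tested. The groups did not overlap for 6 of the 9 genes, against 58.6%. Epcam and Ctnnb1 are among these, so the counts depend on the scaling. At an adjusted p under 0.05, 5 of the 9 rose, against 31.8% of all genes tested. With so few members, these counts are a description and are not set apart from the background by any test. The median log2 fold change was 0.31 over the 9 genes and -0.01 over all genes tested.

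**Figure D1:**
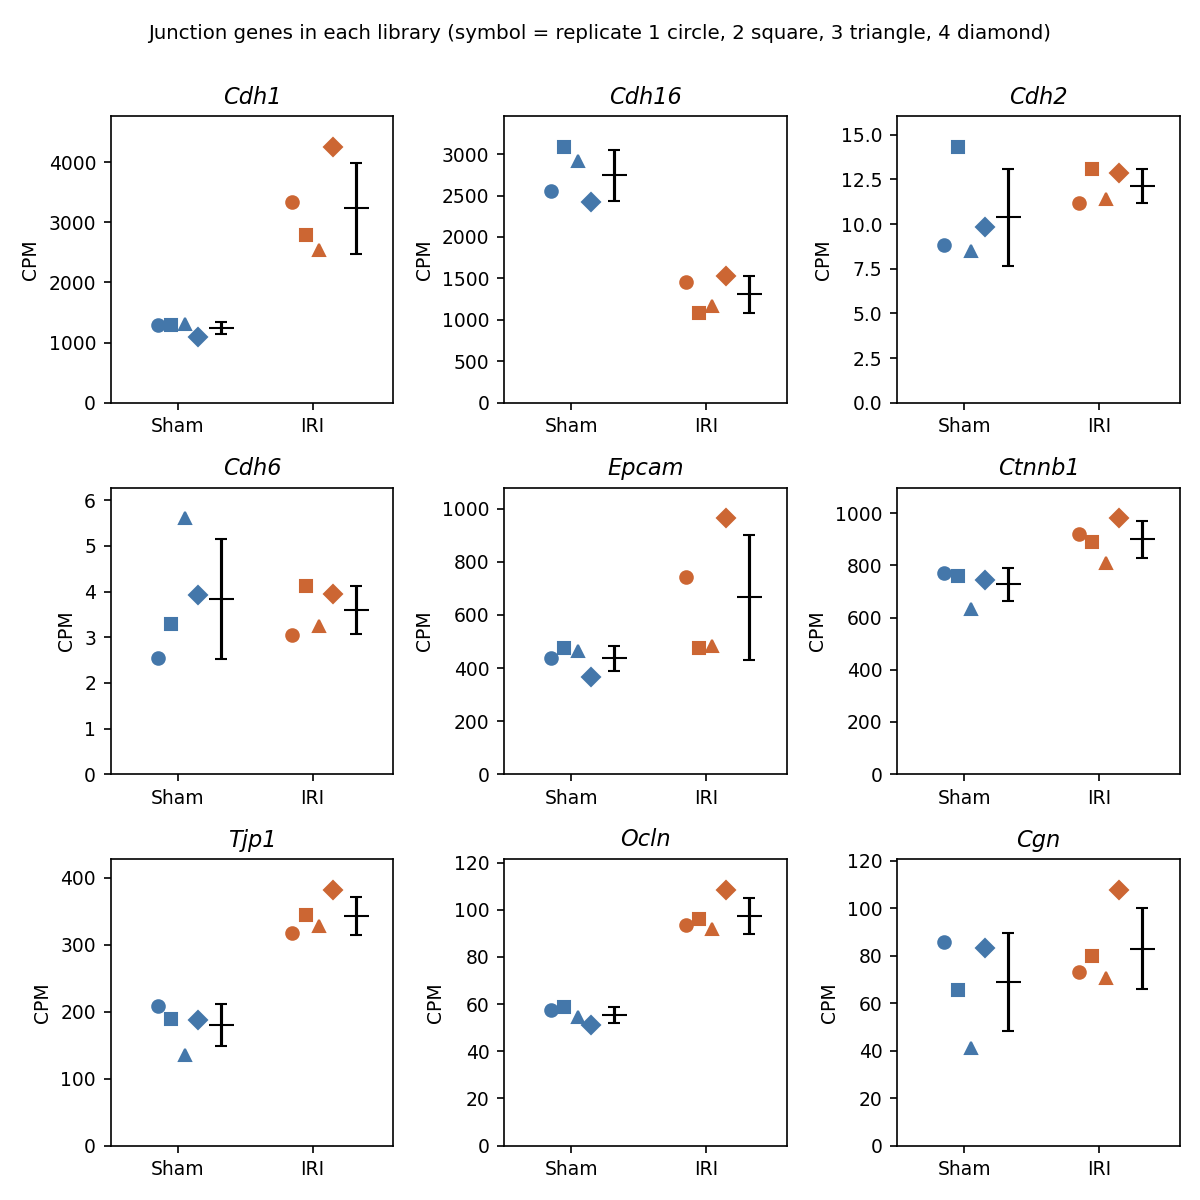
Level of each of the 9 genes in every library, in CPM on a linear axis from 0, with 1 symbol per library and bars for the group mean ± SD (n = 4). Cdh1 sits between 2536 and 4259 CPM in the IRI libraries and between 1099 and 1311 CPM in the sham libraries, Cdh16 is in the opposite order, and the points of Cgn, Cdh2 and Cdh6 overlap.

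Cdh1 encodes E-cadherin, the calcium-dependent adhesion protein of most epithelia, and lies at chr8:106603351-106670246 on the plus strand of mm10. Its level was 3341, 2789.9, 2536 and 4259 CPM in IRI libraries 1 to 4 and 1289.9, 1296, 1311 and 1099 CPM in sham libraries 1 to 4. Every IRI library was above every sham library, and the gap lay between 1311 and 2536 CPM. The means were 3231 ± 763 and 1249 ± 100.5 CPM (SD, n = 4 each), and the log2 fold change was 1.37 with a standard error of 0.16 (edgeR adjusted p = 1.0e-04). The coefficient of variation was 23.6% in the IRI group and 8.05% in the sham group, so the IRI libraries were more spread. IRI libraries 1 and 4, which held most Cdh1, were also those with the higher principal cell marker sums of 3094 and 3915 CPM, against 2108 and 2252 CPM in IRI libraries 2 and 3. Their gene counts were larger too, at 27496808 and 22625170 against 13518005 and 17223554. In sham libraries 1 to 4 the marker sums were 14081, 16091, 12819 and 12315 CPM. That order differed from that of Cdh1, though sham library 4 was lowest in each. The part of either in the Cdh1 values was not tested.

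Cdh16 encodes Cadherin-16, or Ksp-cadherin, a cadherin with a short cytoplasmic tail on the basolateral membrane of tubule cells. It lies on the same chromosome as Cdh1, at chr8:104601911-104624396 on the minus strand. Its level was 1453, 1081, 1162 and 1531 CPM in IRI libraries 1 to 4 and 2558, 3089.6, 2914 and 2427 CPM in sham libraries 1 to 4. All IRI libraries were below all sham libraries, with the gap between 1531 and 2427 CPM. The means were 1307 ± 219 and 2747 ± 308 CPM (SD, n = 4 each), and the log2 fold change was -1.07 with a standard error of 0.15 (edgeR adjusted p = 1.8e-04). The spread was similar in both groups, with coefficients of variation of 16.7% and 11.2%.

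The level of Cdh16 relative to Cdh1 can be read inside each library, where scaling between libraries plays no part. Such a ratio does not show which gene moved, and the separate directions rest on the scaling. With total counts as library sizes the log2 fold changes were 1.18 for Cdh1 and -1.27 for Cdh16. The Cdh16 count divided by the Cdh1 count was 0.435, 0.387, 0.458 and 0.359 in IRI libraries 1 to 4 and 1.98, 2.38, 2.22 and 2.21 in sham libraries 1 to 4. Cdh16 had more counts than Cdh1 in every sham library and fewer in every IRI library. The ratio was 5.38-fold lower in IRI, a difference of -2.43 on the log2 scale (exact two-sided permutation test, p = 0.0286, adjusted p = 0.0357 over 5 ratios). With 4 libraries against 4, 0.0286 is the smallest p the test can give. The groups already lay apart in opposite directions for Cdh1 and Cdh16, so this ratio could give no other p. Per kilobase of annotated exon, Cdh16 was 2.39 to 2.88 times Cdh1 in sham and 0.434 to 0.553 times Cdh1 in IRI, so the order of the pair by level turned around.

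N-cadherin (Cdh2), a cadherin of the proximal tubule and of mesenchymal cells, was at low level at chr18:16588877-16809246 on the minus strand. It read 11.2, 13.1, 11.4 and 12.8 CPM in the IRI libraries and 8.85, 14.3, 8.49 and 9.83 CPM in the sham libraries. Sham library 2 was the highest of all 8 and the groups overlapped. The log2 fold change was 0.22 with a standard error of 0.17 (edgeR adjusted p = 0.284), and 0.41 without sham replicate 2 (edgeR adjusted p = 0.0179). Cadherin-6 (Cdh6, chr15:13028701-13173675, minus strand), a cadherin of early nephron epithelium, read 3.06, 4.13, 3.24 and 3.94 CPM in IRI and 2.54, 3.29, 5.61 and 3.92 CPM in sham, from 52 to 177 counts per library. Sham libraries 1 and 3 were the lowest and the highest of all 8, and the groups overlapped. Its log2 fold change was -0.10 with a standard error of 0.26 (edgeR adjusted p = 0.741), and 0.13 without sham replicate 3, so no direction can be given.

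Set against Cdh1 in the same library, both minor cadherins stood lower after injury, while their own CPM did not pass the test and that of Cdh1 rose. The log2 ratio of Cdh2 to Cdh1 averaged -8.03 ± 0.31 in IRI and -6.94 ± 0.36 in sham (SD, n = 4 each), a 2.13-fold lower ratio. The log2 ratio of Cdh6 to Cdh1 averaged -9.79 ± 0.35 in IRI and -8.40 ± 0.50 in sham, a 2.62-fold lower ratio. Neither ratio overlapped between the groups (exact two-sided permutation test, p = 0.0286 for each, adjusted p = 0.0357).

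**Figure D2:**
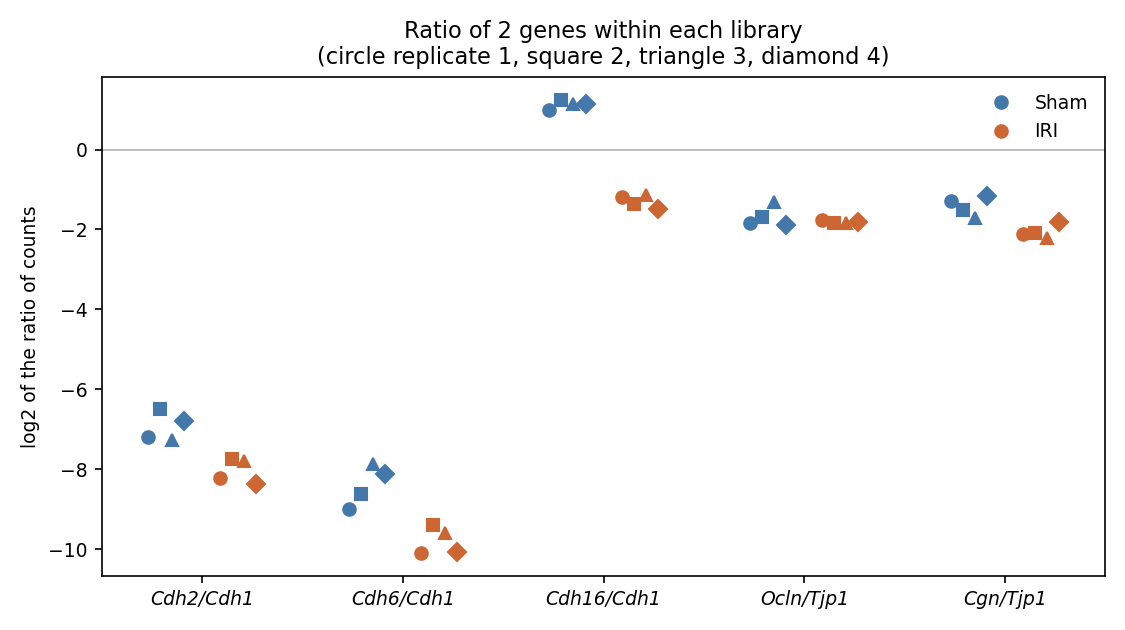
Log2 ratio of 1 gene's count to another's within each library, for the 5 pairs compared, with 1 symbol per library coloured by group. The Cdh16 to Cdh1 ratio is above 0 in all sham libraries and below 0 in all IRI libraries, while the Ocln to Tjp1 ratio overlaps between the groups.

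Tight junction genes are described next. Tjp1 encodes ZO-1, the scaffold that links occludin and claudins to actin, at chr7:65296165-65527781 on the minus strand. It read 318, 344, 328 and 382 CPM in IRI libraries 1 to 4 and 208, 189, 135 and 188 CPM in sham libraries 1 to 4. The groups were well apart, and sham library 3 was the lowest of all. The means were 343 ± 28.1 and 179.9 ± 31.2 CPM (SD, n = 4 each), and the log2 fold change was 0.93 with a standard error of 0.13 (edgeR adjusted p = 2.6e-04).

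Ocln encodes occludin, the tight junction membrane protein with a MARVEL domain, at chr13:100496507-100552718 on the minus strand. It read 93.3, 96.2, 91.7 and 108 CPM in IRI libraries 1 to 4 and 57.5, 58.8, 54.4 and 51.0 CPM in sham libraries 1 to 4. This was among the tightest of the 9 genes, with coefficients of variation of 7.81% and 6.32%, and the groups did not overlap. The means were 97.4 ± 7.60 and 55.4 ± 3.50 CPM (SD, n = 4 each), and the log2 fold change was 0.81 with a standard error of 0.08 (edgeR adjusted p = 2.3e-05). Cgn encodes cingulin, which binds ZO-1 and connects the junction to myosin, at chr3:94760069-94786492 on the minus strand. It read 73.3, 80.1, 70.7 and 108 CPM in IRI and 85.8, 65.6, 41.3 and 83.5 CPM in sham. The groups overlapped, with a log2 fold change of 0.27 and a standard error of 0.23 (edgeR adjusted p = 0.329). It was 0.07 without sham replicate 3 and 0.12 without IRI replicate 4.

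Within a library, cingulin fell behind ZO-1 and occludin was not shown to. The Cgn count divided by the Tjp1 count was 0.231, 0.233, 0.216 and 0.283 in IRI libraries 1 to 4 and 0.413, 0.348, 0.306 and 0.445 in sham libraries 1 to 4, with no overlap. The ratio was 1.56-fold lower in IRI (exact two-sided permutation test, p = 0.0286, adjusted p = 0.0357). The Ocln count divided by the Tjp1 count was 0.279 to 0.294 in IRI and 0.272 to 0.402 in sham, and the highest of all 8 was sham library 3. The log2 difference was -0.13 (exact two-sided permutation test, p = 0.429, adjusted p = 0.429).

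Epcam encodes a homophilic adhesion protein of epithelial cells that binds claudin-7, at chr17:87635979-87651129 on the plus strand. It read 742, 476, 482 and 964 CPM in IRI libraries 1 to 4 and 439, 475, 463 and 367 CPM in sham libraries 1 to 4. By CPM the groups touched without overlapping, since the lowest IRI library stood at 476 CPM and the highest sham library at 475 CPM. With raw totals of gene counts they overlap. The means were 666 ± 234 and 436 ± 48.1 CPM (SD, n = 4 each). The log2 fold change was 0.61 with a standard error of 0.22 (edgeR adjusted p = 0.0382), which does not pass 0.01. Without IRI replicate 4 it was 0.38 (edgeR adjusted p = 0.0909). The coefficient of variation was 35.2% in IRI and 11% in sham. IRI libraries 1 and 4 were high for Epcam, Cdh1 and the principal cell markers alike, and also had the larger gene counts of the IRI group.

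Ctnnb1 encodes beta-catenin, which binds the tails of classical cadherins and is also the nuclear partner of Wnt signalling, at chr9:120929216-120960507 on the plus strand. It read 921, 889, 809 and 981 CPM in IRI libraries 1 to 4 and 772, 758, 634 and 743 CPM in sham libraries 1 to 4. By CPM all IRI libraries were above all sham libraries by a small margin, and with raw totals of gene counts the groups overlap. The means were 899.9 ± 71.6 and 727 ± 63.3 CPM (SD, n = 4 each). The log2 fold change was 0.31 with a standard error of 0.10 (edgeR adjusted p = 0.0241), which does not pass 0.01, and DESeq2 gave an adjusted p of 0.00266. With total counts as library sizes the log2 fold change was 0.12 (edgeR adjusted p = 0.317) and with upper-quartile factors 0.19 (edgeR adjusted p = 0.125). Of its annotated exon bases 15.1% are shared with Ulk4 or Mir7090, and the exons of the other members share none with another gene. Depending on how reads were counted, those from the shared bases may not be assignable to 1 gene, and this was not tested.

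RefSeq promoter windows on GRCm38.p6 were available for 6 of the 9 genes and not for Cdh1, Cdh2 and Cdh16. Those of Ocln, a tight junction gene, and Epcam, an adhesion gene, are shown. Each stretch is the 250 bases before the transcript start, chr13:100552719-100552968 on the minus strand for Ocln and chr17:87635729-87635978 on the plus strand for Epcam. The letters CAGGTG, the E-box bound by Snail and ZEB repressors, were searched on both strands and are in capitals with the reverse complement.
Ocln: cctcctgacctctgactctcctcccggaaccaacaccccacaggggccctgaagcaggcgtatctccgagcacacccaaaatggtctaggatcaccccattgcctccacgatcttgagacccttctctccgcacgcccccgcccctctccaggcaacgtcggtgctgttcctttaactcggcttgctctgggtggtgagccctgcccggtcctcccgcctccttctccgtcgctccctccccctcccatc
Epcam: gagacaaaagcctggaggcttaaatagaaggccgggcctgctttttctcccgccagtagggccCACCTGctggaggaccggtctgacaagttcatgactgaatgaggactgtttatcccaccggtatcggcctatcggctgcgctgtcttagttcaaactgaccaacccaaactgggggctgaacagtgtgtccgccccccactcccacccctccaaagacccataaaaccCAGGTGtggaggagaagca
The Epcam stretch held 2 matches, with first bases 187 and 19 before the start, and the Ocln stretch held 0. A further RefSeq start of Ocln has its window at chr13:100552499-100552748, which lies partly in an Ocln exon, is not shown and held 2 matches, with first bases 213 and 68 before that start. The windows of Cgn, Tjp1, Ctnnb1 and Cdh6 held 0 matches. Among the 6 genes with a window only Epcam and Ocln thus had a match, Ocln in the window not shown. Cdh1, Cdh2 and Cdh16 were not searched. Over all 32851 windows, 17.2% held CAGGTG in these 250 bases. TGANTCA, the AP-1 motif, was in 6.75% of windows and in neither of the stretches shown. A match describes letters and not binding.

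Levels between genes were compared per kilobase of annotated exon. In the sham libraries the order ran from Cdh16 at 724 ± 81.1 CPM per kilobase through Cdh1 at 273 ± 22.0, Epcam at 199 ± 21.9, Ctnnb1 at 140.0 ± 12.2, Tjp1 at 23.0 ± 3.99, Ocln at 13.1 (12.1 to 13.9), Cgn at 11.5 ± 3.42 and Cdh2 at 1.29 ± 0.335 to Cdh6 at 0.425 ± 0.145 (SD or range, n = 4 for each). Only Ocln and Cgn, among neighbours in that order, overlapped in range. In the IRI libraries the first place went to Cdh1 at 706 ± 167 CPM per kilobase, ahead of Cdh16 at 345 ± 57.7 and Epcam at 303 ± 107, which overlapped each other, and the lower places kept the sham order. Ctnnb1 stood at 173 ± 13.8, Tjp1 at 43.9 ± 3.59, Ocln at 23.1 ± 1.80, Cgn at 13.8 ± 2.83, Cdh2 at 1.5 ± 0.120 and Cdh6 at 0.398 ± 0.0578 CPM per kilobase, with no overlap between these neighbours.

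**Figure D3:**
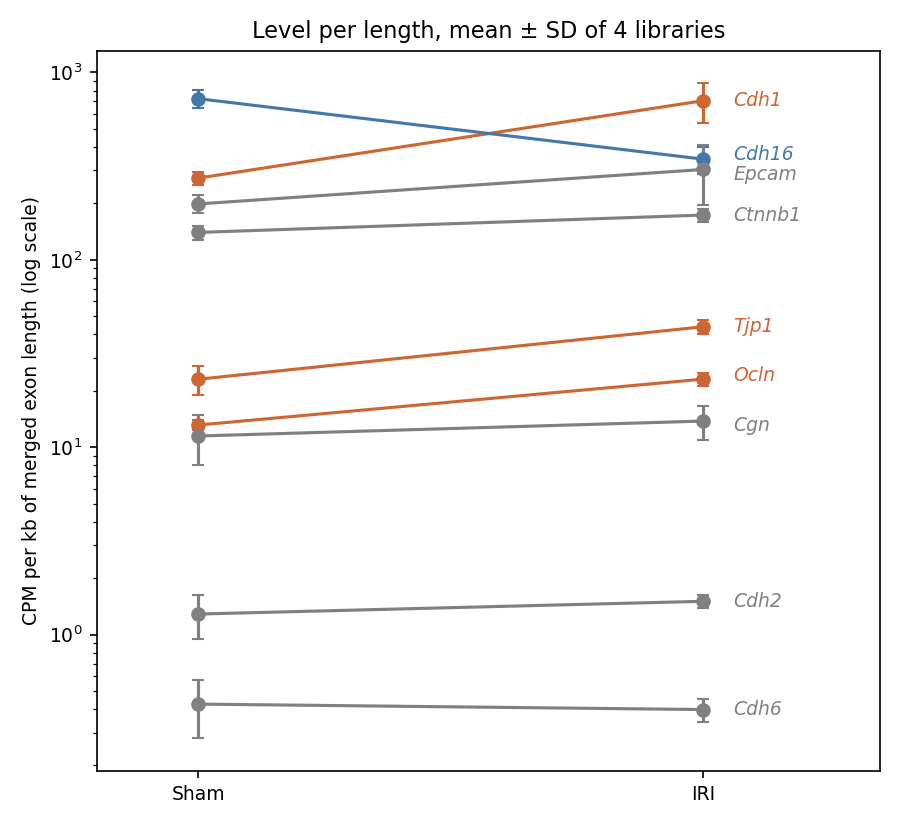
Level of each of the 9 genes in CPM per kilobase of annotated exon on a log axis, as mean ± SD of the 4 sham and the 4 IRI libraries joined by a line and coloured where the gene rose or fell at an edgeR adjusted p under 0.01. Cdh16 leads in the sham group at 724 CPM per kilobase and Cdh1 leads in the IRI group at 706 CPM per kilobase, and Cdh2 and Cdh6 are the lowest of the 9 in both.

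The genes whose log2 CPM followed each member most closely over the 8 libraries were named as a description, among 11295 genes of at least 5 CPM, and these libraries share the group difference and the marker shifts. For Cdh1 they were Mboat1 (Pearson r = 0.999) and Itga3 (r = 0.997), for Cdh16 they were Ucp2 and Serinc3 (r = 0.996 for both), and for Ocln they were Rangap1 and Noc4l (r = 0.997 for both). Genes with r above 0.95 numbered 741 for Cdh1, 1021 for Cdh16, 1019 for Ocln and 277 for Tjp1, whose closest were Dhx15 (r = 0.994) and Sema3e (r = 0.993). For Epcam the closest was Bmp3 (r = 0.981) and for Ctnnb1 Sec24c (r = 0.989), with 22 and 46 genes above 0.95. For Cdh2, Cdh6 and Cgn no gene exceeded 0.95, and the closest were Hnrnpc (r = 0.930), Setdb1 (r = 0.903) and Arhgap17 (r = 0.928).

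The other genes of the junction pathways were read from lists chosen with earlier results known. Of 125 tested genes on them 47 rose (37.6%) and 21 fell (16.8%), against 25.1% and 24.6% of all genes tested. The counts were 37 and 29 with total counts as library sizes and 40 and 26 with upper-quartile factors. Over all 14606 genes tested, 2784 rose and 4912 fell with total counts, and 3092 rose and 4393 fell with upper-quartile factors. In the main fit 3667 rose and 3595 fell. The balance thus depends on the scaling for the lists and for all genes alike. Of 18 other classical cadherins 9 could be tested, 2 rose and 2 fell, with a median log2 fold change of -0.22. Cdh5, the cadherin of endothelial cells, rose 7.15-fold, from 14.3 ± 2.16 CPM in sham to 102 ± 24.3 CPM in IRI (SD, n = 4 each, edgeR adjusted p = 3.5e-06). Its log2 fold change was 2.84. Those of the 10 endothelial markers given above ran from -0.77 to 1.52, with 6 that rose. The part of endothelial RNA in the Cdh5 values was not tested. The 9 untested cadherins, among them Cdh9, Cdh10 and Cdh18, had 0 to 5 counts per library. Of 13 tested atypical cadherins and protocadherins 5 rose and 3 fell, and without sham replicate 4 only 3 rose. The brush border cadherins Cdhr5 and Cdhr2 rose 2.97 and 2.45-fold. Cdhr5 read 115, 85.4, 134 and 63.7 CPM in IRI libraries 1 to 4, where the summed proximal tubule markers read 18540, 11922, 19289 and 9518 CPM, in the same order. In sham libraries 1 to 4 the order differed. Cdhr5 read 32.4, 29.6, 34.3 and 38.0 CPM there and those markers 10546, 7769, 8149 and 10015.5 CPM. The part of proximal tubule RNA was not tested. Pcdh1 rose 1.79-fold and Pcdh7 1.73-fold, the latter not passing with total counts as library sizes or without sham replicate 3 or 4. Pcdh7 shares 21.1% of its exon bases with 4932441J04Rik. Celsr2, a planar polarity cadherin, fell 2.74-fold from 473 ± 68.3 to 172 ± 21.3 CPM (edgeR adjusted p = 1.6e-05), Clstn1 fell 1.93-fold and Celsr1 fell 1.58-fold.

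Partners of the adherens junction rose in 5 of 18 tested cases (27.8%) and fell in 1 (5.56%), against 25.1% and 24.6% of all genes tested. Their median log2 fold change was 0.35. The count that rose was 3 without IRI replicate 3, sham replicate 2 or sham replicate 4, 3 with total counts or upper-quartile factors, and 8 with DESeq2, and the count that fell was 3 without IRI replicate 4. Vinculin (Vcl), which joins the catenins to actin under load, rose 2.05-fold, from 178 ± 11.6 to 365 ± 11.1 CPM (SD, n = 4 each, edgeR adjusted p = 6.0e-06), and shares 25.5% of its exon bases with Ap3m1. Plakoglobin (Jup), the catenin shared with desmosomes, rose 1.90-fold from 335 ± 22.8 to 636 ± 78.8 CPM (edgeR adjusted p = 7.2e-05). The nectin genes Pvrl2 and Pvrl1 rose 2.41 and 1.55-fold and Pvrl4 fell 1.82-fold, and Pvrl1 did not pass under either scaling change or under 7 of the 8 omissions of 1 library. Alpha-catenin (Ctnna1) was at 1135 ± 185 CPM in IRI and 799 ± 121 CPM in sham and did not pass (edgeR adjusted p = 0.016). Neither did Ctnnd1, p120-catenin, which stabilises E-cadherin at the membrane (edgeR adjusted p = 0.142). Ctnnd1 shares 61.2% of its exon bases with Gm28635.

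Tight junction membrane and scaffold genes beyond the members rose in 11 of 26 cases (42.3%) and fell in 4 (15.4%), against 25.1% and 24.6% of all genes tested. Their median log2 fold change was 0.12. The count that fell was 6 with total counts or upper-quartile factors, and the count that rose stayed at 11. Tjp3, encoding ZO-3, fell 3.26-fold from 94.8 ± 10.9 to 29.0 ± 8.28 CPM (SD, n = 4 each, edgeR adjusted p = 5.1e-05). Amotl1, an angiomotin that binds actin and YAP, rose 3.90-fold, and Jam2 and Jam3, adhesion molecules of endothelium and epithelium, rose 3.38 and 3.16-fold, where 36.2% of Jam3 exon bases are shared with another gene. The polarity genes Prkcz, Magi1 and Inadl fell 1.85, 1.39 and 1.34-fold, and Inadl did not pass without IRI replicate 2 or 3 or without sham replicate 1 or 2. Paracingulin (Cgnl1), the relative of cingulin, stood at 658 ± 40.6 CPM in IRI and 671 ± 136 CPM in sham and did not pass.

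Desmosome genes rose in 4 of 9 tested cases (44.4%) and fell in 1 (11.1%), against 25.1% and 24.6% of all genes tested. Their median log2 fold change was 0.44. Plakophilin-3 (Pkp3) rose 3.76-fold (edgeR adjusted p = 1.7e-06), Perp 2.0-fold, Pkp2 1.87-fold and Ppl 1.55-fold, the last not passing with total counts, with upper-quartile factors or without sham replicate 4. Envoplakin (Evpl) fell 2.81-fold, and desmoplakin (Dsp) had 1427 ± 183 CPM in IRI and 1467 ± 611 CPM in sham. For Dsp, sham library 3 read 554 CPM while the other sham libraries, at 1710 to 1847 CPM, lay above all IRI libraries, and without sham replicate 3 the log2 fold change was -0.32 (edgeR adjusted p = 0.0485). Partners and proteases of Epcam rose in 5 of 9 cases (55.6%) and fell in 0, with a median log2 fold change of 0.93. Claudin-7 (Cldn7), which Epcam binds and holds at the membrane, rose 4.19-fold, from 109.7 ± 7.46 to 460 ± 99.4 CPM (edgeR adjusted p = 5.6e-06). Cd44 rose 5.86-fold and the tetraspanin Cd9 rose 2.02-fold.

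Transcription factors known to repress the E-cadherin gene rose in 7 of 10 cases and fell in 0 while Cdh1 itself rose, against 25.1% and 24.6% of all genes tested. With total counts as library sizes 5 rose and 1 fell. The median log2 fold change of this list was 1.19. Zeb1 read 29.4, 52.8, 50.1 and 41.4 CPM in IRI libraries 1 to 4 and 9.33, 7.54, 7.95 and 11.1 CPM in sham libraries 1 to 4, with no overlap. It rose 4.82-fold (edgeR adjusted p = 1.6e-05) and Zeb2 rose 3.15-fold (edgeR adjusted p = 7.0e-04). The summed endothelial markers read 300.4, 636, 506 and 443 CPM in IRI libraries 1 to 4, the same order of libraries as Zeb1 and Zeb2. The fibroblast and pericyte markers (302, 1688, 598 and 524 CPM), the neutrophil markers and the macrophage markers stood in that order too. In sham libraries 1 to 4 the endothelial markers read 256, 242, 203 and 284 CPM, with libraries 2 and 3 in the other order than by Zeb1. The part of RNA from any of these cells in the Zeb1 and Zeb2 values was not tested. Snai1, encoding Snail, rose 4.36-fold at 9 to 59 counts per library (edgeR adjusted p = 8.6e-04), Snai2 had a log2 fold change of 0.62 (edgeR adjusted p = 0.0664) and Twist1 did not differ detectably (edgeR adjusted p = 0.995). Snai3 and Twist2 also rose, at 1 to 47 counts per library, and so did Klf8. Tcf4 rose 1.55-fold and did not pass with total counts as library sizes.

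Factors of epithelial identity rose in 1 of 12 cases (8.33%) and fell in 5 (41.7%), against 25.1% and 24.6% of all genes tested. Their median log2 fold change was -0.38. Tfcp2l1, a factor of principal and intercalated cells, fell 3.62-fold from 3837 ± 272 to 1059 ± 148 CPM (edgeR adjusted p = 4.0e-06), together with the principal cell markers. Elf5, a principal cell factor, fell 5.57-fold, Grhl3 fell 4.41-fold and Gata3 fell 1.82-fold. Esrp2, a splicing factor of epithelial cells, rose 1.39-fold and did not pass with total counts or upper-quartile factors. Grhl2, a regulator of E-cadherin and claudins, was at 70.2 ± 14.6 CPM in IRI and 84.6 ± 5.33 CPM in sham (edgeR adjusted p = 0.104), and passed only without IRI replicate 4 among the omissions of 1 library (log2 fold change of -0.41, edgeR adjusted p = 0.00356).

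Among 10 genes of the complex that marks beta-catenin for destruction, 3 rose (30%) and 4 fell (40%). Over all genes tested the shares were 25.1% and 24.6%. Only 1 of the 10 rose without sham replicate 1 or 4. Fbxw11, a ubiquitin ligase subunit, rose 1.44-fold, while Csnk1a1 and Gsk3b, kinases of beta-catenin, rose 1.28 and 1.25-fold and did not pass with total counts or upper-quartile factors. Csnk1a1 did not pass without sham replicate 1, 3 or 4 either, and Gsk3b passed under only 1 of the 8 omissions of 1 library, that of sham replicate 3. Axin2, a scaffold of the complex and itself a Wnt target, fell 3.02-fold, Amer1 fell 1.72-fold and Btrc fell 1.64-fold. Of these, Axin2 did not pass with a term for 2 series, low and high, of numbers in the submitters' names, taken here as animal numbers. IRI libraries 1 to 3 and sham library 1 were in the low series and the other libraries in the high one. That term thus partly follows the group and takes away part of the contrast. Of 9 genes of cadherin shedding and endocytosis 4 rose (44.4%) and 1 fell (11.1%). Adam10, the main sheddase of E-cadherin, rose 1.83-fold from 162 ± 15.1 to 297 ± 46.2 CPM (edgeR adjusted p = 2.6e-04), Mmp14 rose 3.15-fold and Rab11a, which recycles E-cadherin, rose 1.84-fold. Adam17, another sheddase, fell 1.40-fold.

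**Figure D4:**
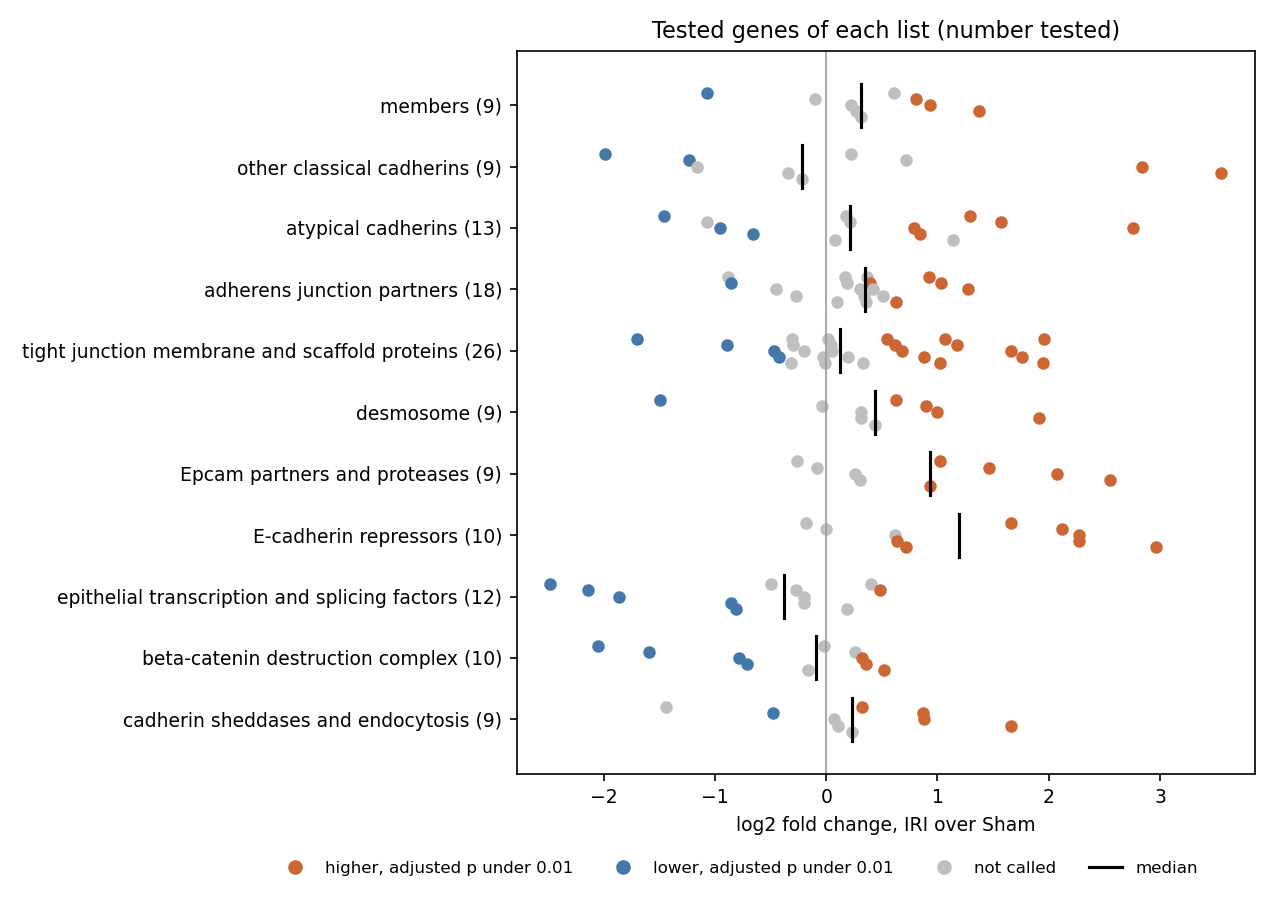
Log2 fold change of IRI over sham for every tested gene of the 9 members and of each of the 10 pathway lists, 1 row per list, with a line at each list's median and points marked by whether they passed an edgeR adjusted p under 0.01. The repressors of E-cadherin have a median of 1.19 and the factors of epithelial identity a median of -0.38, against -0.01 over all genes tested.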

How the data were processed

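The authors captured tagged ribosomes from kidney, prepared ribosome-depleted libraries, aligned reads to mm10 with TopHat2 2.1.1 and counted them per gene with HTSeq, per the labels and the study's methods. The deposited files hold raw counts of reads per gene, 1 table per library. For the annotation release, counting mode and strand, the sources used here give no entry. Lines that name no gene, 43.3% to 52.3% of counted lines in IRI and 33.3% to 37.7% in sham, were left out of library sizes.

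IRI was compared with sham by edgeR 4.0.16 in R 4.3.3 with TMM factors, a quasi-likelihood test, filterByExpr (minimum count 10, minimum total 15) and no covariate. Of 24421 genes, 14606 were tested, and 0.01 was the adjusted p threshold. Standard errors came from limma 3.58.1 (voom), and CPM used TMM library sizes. Ratios added a pseudocount of 0.5 before the log2 and were tested by exact permutation over 4 and 4 libraries. Positions and exon lengths came from a GENCODE annotation of mm10 and promoters from RefSeq. The procedure was tested on simulated counts in which few genes changed, as many up as down. That simulation does not cover the choice of scaling where many genes change, as here.

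Named genes were all members and, per list and direction, up to 4 genes with the largest change of at least 5 mean CPM past the threshold, and 5 repressors (Snai1, Snai2, Zeb1, Zeb2, Twist1) whatever their level. Ctnna1, Ctnnd1, Cgnl1, Dsp and Grhl2 were added after their values were seen. Members and lists were chosen with earlier results of these data known. Alternatives were DESeq2 1.42.0, limma-voom, other size factors, other filters, a threshold of 0.05, an animal number series term, a replicate block and omission of each library. Dchs2 and Ly6g were not analysed here, and some genes that the rule takes are not reported here.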

Additional observations from a re-analysis of the deposited data

Results flagged for a closer look

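Cdh1 in the sham group was singled out because 1 library stood away from the others. Sham replicate 4 read 1099 CPM, while the other sham libraries lay between 1289.9 and 1311 CPM, a gap of 0.902 of the group's whole range. Of 28 groups of 4 libraries checked in the same way, 1 was singled out, a number that chance alone can give. Without sham replicate 4 the Cdh1 log2 fold change was 1.30 (edgeR adjusted p = 5.8e-04).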

How the results depend on the processing

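Cdh1, Cdh16, Tjp1 and Ocln passed the threshold with the same sign under all 18 alternatives, with largest adjusted p of 0.00184, 0.00325, 0.0017 and 8.4e-04. Over omissions of 1 library their log2 fold changes ranged from 1.21 to 1.47, -1.16 to -0.99, 0.81 to 0.99 and 0.76 to 0.84. Cdh6 turned to 0.16 (adjusted p = 0.649) with the animal number series as a term and to 0.13 without sham replicate 3, in a range of -0.27 to 0.13, and the cause was not tested. At an adjusted p under 0.05 the members that rose numbered 5 in place of 3, since Epcam (0.61, adjusted p = 0.0382) and Ctnnb1 (0.31, adjusted p = 0.0241) then passed, and Ctnnb1 also passed with DESeq2 (0.31, adjusted p = 0.00266). In the other direction, total counts gave Epcam 0.42 (adjusted p = 0.124) and Ctnnb1 0.12 (adjusted p = 0.317), and over all alternatives the adjusted p ranged from 0.0146 to 0.124 for Epcam and from 0.00266 to 0.317 for Ctnnb1.

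Total counts and upper-quartile factors moved the median log2 fold change of all genes from -0.01 to -0.20 and -0.12, and gave 2784 higher and 4912 lower, and 3092 higher and 4393 lower, in place of 3667 and 3595. Of 49 named list genes 39 passed under every alternative at 0.01, 10 (among them Pcdh7, Pvrl1, Inadl, Ppl, Tcf4, Esrp2, Csnk1a1, Gsk3b and Axin2, the last with the replicate block and with the animal number series) missed it under at least 1, and 0 changed sign. Labels number replicates alike in both groups, but same-numbered libraries did not deviate together (correlations of -0.067, -0.527, -0.336 and -0.357), so the numbers were not read as pairs. With the replicate block 5582 genes passed in place of 7262, the members stayed at 3 higher and 1 lower, and the pathway lists gave 40 higher and 18 lower. Cdh6 had 52 to 177 counts per library, which limits what could be detected for it.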
